A study of Homo sapiens with 15 samples.

Results

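Resveratrol given ahead of bacterial endotoxin was compared with endotoxin alone in Caco-2 cells, an established human line from a colon carcinoma whose confluent monolayers acquire traits of absorptive enterocytes. The comparison used 10 of the 15 arrays of the series, chosen by their titles. The LPS group held 5 arrays (1 to 5) of cells kept for 48 h with 1 µg/mL lipopolysaccharide of the K12 strain of E. coli, a ligand of the receptor TLR4. The LPS+RSV group held 5 arrays (1 to 5) of cells that received 50 µM trans-resveratrol in ethanol 1 h ahead of the same exposure. The 5 arrays of untreated control cells were used for the shared estimate of spread, and their levels are given for some of the genes. All cells were used 15 to 19 days after seeding, and the labels tie no array to a day. They do not say whether the LPS group was given ethanol, and no group had resveratrol without LPS. They also do not tie replicate numbers to separate cultures, and each p-value thus reflects only how these samples vary, which could be technical variation.

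Lipopolysaccharide is sensed at the cell surface by TLR4 with its partner CD14, and the adaptor MYD88 passes the signal to NF-κB and to MAP kinases, which switch on chemokines such as CCL20 and short-lived transcription factors. Colon epithelium also carries NOX1, an oxidase of the plasma membrane that makes superoxide from NADPH. Resveratrol is a plant stilbene known as an antagonist of the dioxin receptor AHR and for effects on sirtuins, on the antioxidant regulator NRF2 (gene NFE2L2) and on cell division. Metallothioneins are small proteins that bind zinc and copper, and their genes are induced through the zinc-sensing factor MTF1.

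Each value was a log2 expression level of 1 probe set on 1 Affymetrix whole-transcript array. Of the 14884 gene symbols named here, 11804 were tested, those brighter than the 40th percentile on at least 5 of 15 arrays. Arrays correlated between 0.922 and 0.994 with each other across these genes, and LPS+RSV array 1 stood apart, at a mean of 0.946 with the other arrays. For 10 of 14 epithelial and enterocyte markers a probe set was named here, and all 10 were above the filter. VIL1, a microvillus protein, was bright at 10.87 in LPS and 11.04 in LPS+RSV, as was SI, the brush border sucrase, at 11.80 and 12.10. The keratin KRT20 was dimmer, at 6.80 and 5.77. All named goblet markers (3 of 4) and enteroendocrine markers (2 of 3) were also above the filter, so passing it does not tell cell types apart. Of 7 fibroblast and endothelial markers 3 were named here: DCN lay at 3.34 in LPS and 3.24 in LPS+RSV, under the 40th percentile on every array, while PECAM1 (5.81 and 5.82) and VWF (5.63 and 5.56) lay above it on all 15. The 1 immune marker of 5 named here, CD68, was high at 11.43 and 11.71. The part of other cell types in the results was not tested. These are bulk samples, in which fewer cells of a type and less RNA per cell cannot be told apart.

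NOX1 fell 3.82-fold with resveratrol, and 4 other genes passed the test over all genes tested: the ETS transcription factor gene ETV4, the keratin gene KRT18 and the DNA topoisomerase gene TOP1 fell, and CLYBL, which encodes a mitochondrial citramalyl-CoA lyase, rose. A gene passed when its limma p, adjusted by Benjamini-Hochberg over the 11804 genes, was under 0.05. The 5 genes were 0.0424% of the genes tested, 1 higher (0.00847%) and 4 lower (0.0339%). All 5 LPS+RSV arrays lay on 1 side of all 5 LPS arrays in each of these 5 genes.

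**Figure D1:**
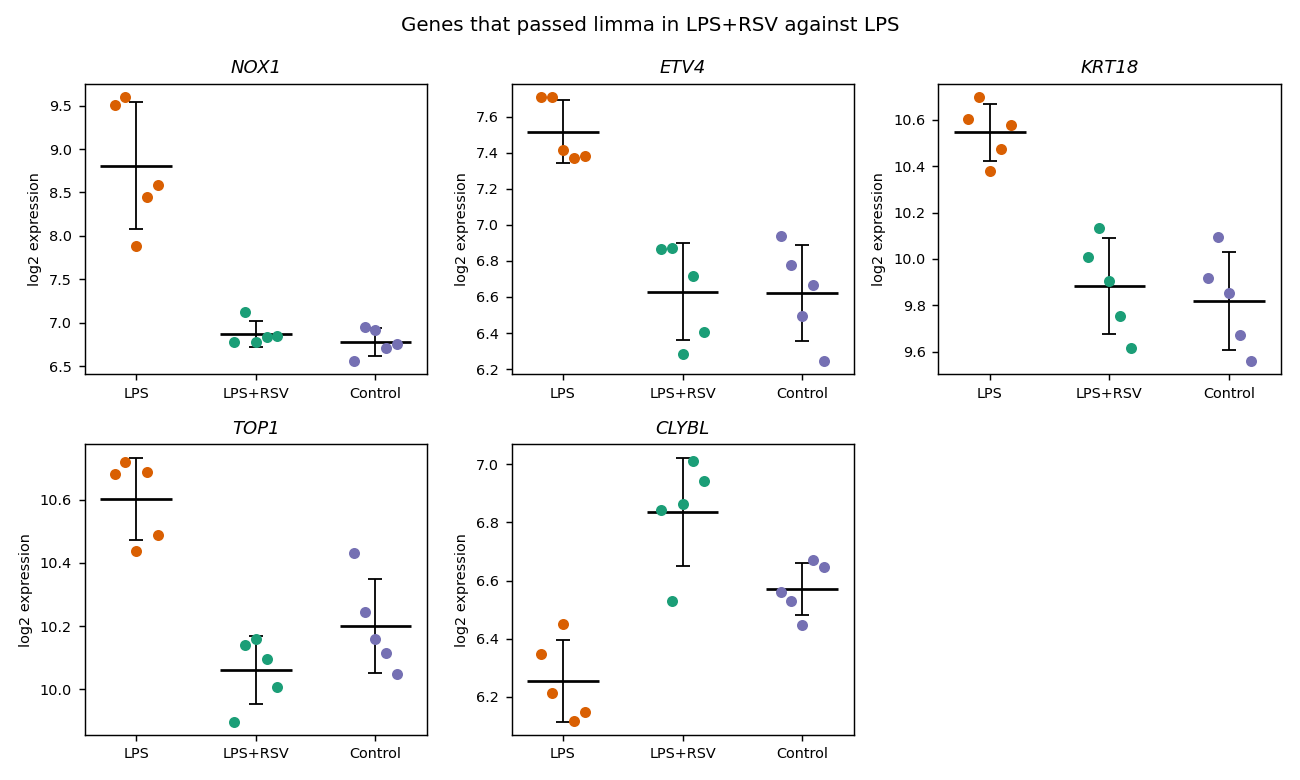
Log2 expression of the 5 genes that passed, 1 point for each array in replicate order from left to right, with the group mean (bar) and SD (error bar) of 5 arrays. NOX1, ETV4, KRT18 and TOP1 are lower in every LPS+RSV array than in any LPS array and CLYBL is higher. The control arrays overlap the LPS+RSV arrays in each of the 5 genes.

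NOX1 measured 9.51, 9.60, 7.89, 8.45 and 8.58 in LPS arrays 1 to 5 and 6.77, 7.13, 6.78, 6.83 and 6.85 in LPS+RSV arrays 1 to 5. LPS arrays 1 and 2 were the highest and array 3 the lowest of their group, whereas the LPS+RSV arrays lay close together and overlapped the controls, at 6.56 to 6.95. The log2 change was -1.94 ± 0.25 (SE, limma adjusted p = 0.00864, 95% confidence interval -2.46 to -1.41). The other tested genes on the list of NADPH oxidases and partners had smaller differences, none past the threshold. The organizer NOXO1 differed by 0.20 ± 0.09 and the activator NOXA1 by 0.16 ± 0.09. The dual oxidases DUOX1 and DUOX2, separate enzymes, were lower, by -0.22 ± 0.08 and -0.10 ± 0.11.

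ETV4, which ERK signalling induces in epithelial cells, measured 7.71, 7.71, 7.41, 7.37 and 7.38 in LPS and 6.86, 6.87, 6.28, 6.72 and 6.41 in LPS+RSV. The lowest LPS array was 7.37 and the highest LPS+RSV array 6.87. The log2 change was -0.89 ± 0.14 (SE, limma adjusted p = 0.0307). KRT18, the type I keratin of simple epithelia, measured 10.60, 10.70, 10.38, 10.47 and 10.58 in LPS and 10.01, 10.13, 9.90, 9.75 and 9.61 in LPS+RSV, a change of -0.66 ± 0.11 (limma adjusted p = 0.0474). Control means were 6.62 ± 0.27 for ETV4 and 9.82 ± 0.21 for KRT18 (SD, n = 5). A second, dimmer KRT18 probe set (mean level 7.56, against 10.08) had a difference of -0.25. KRT18 has many processed pseudogenes that can share its probes, so the level assigned to it is uncertain. Its pairing partner KRT8 differed by -0.23 ± 0.12, with overlapping groups, and by -0.14 without LPS+RSV array 4.

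TOP1, the enzyme that relieves supercoils ahead of polymerases, measured 10.68, 10.72, 10.44, 10.69 and 10.49 in LPS and 9.90, 10.14, 10.16, 10.10 and 10.01 in LPS+RSV. The change was -0.54 ± 0.08 (limma adjusted p = 0.0307), and LPS+RSV array 1 was the lowest of its group. CLYBL measured 6.35, 6.21, 6.45, 6.12 and 6.15 in LPS and 6.84, 6.53, 6.86, 7.01 and 6.94 in LPS+RSV, a change of 0.58 ± 0.09 (limma adjusted p = 0.0307). LPS+RSV array 2 was its lowest, 6.53 against the highest LPS array at 6.45. The control means were 10.20 ± 0.15 for TOP1 and 6.57 ± 0.09 for CLYBL (SD, n = 5), between those of LPS and LPS+RSV. These calls drew on the control arrays for their estimate of spread: with limma on only the 10 LPS and LPS+RSV arrays 0 genes passed, 1897 had an unadjusted p under 0.05, and the adjusted p was 0.0764 for NOX1 and ETV4, 0.0849 for TOP1 and KRT18 and 0.186 for CLYBL. When arrays were dropped 1 at a time from all 15, NOX1 passed in all 10 fits. The other 4 genes passed in those without LPS array 3, which called 102 genes, and without LPS+RSV array 2, which called 121, and in no other.

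Beyond these 5, many genes differed with little overlap between the groups. The groups did not overlap at all in 331 genes, 2.8% of those tested; 167 were higher in LPS+RSV (1.41%) and 164 lower (1.39%). The lower genes had a median size of 0.35 and the higher ones of 0.23 on the log2 scale. An exact permutation test of 1 gene over these 10 arrays can give no two-sided p below 0.00794, so separation alone passes no correction over all genes. An adjusted limma p under 0.10 was reached by 73 genes, 28 higher and 45 lower, and 10 of these did not separate the groups. An unadjusted limma p under 0.05 was reached by 2195 genes (18.6%), 954 higher (8.08%) and 1241 lower (10.5%).

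**Figure D2:**
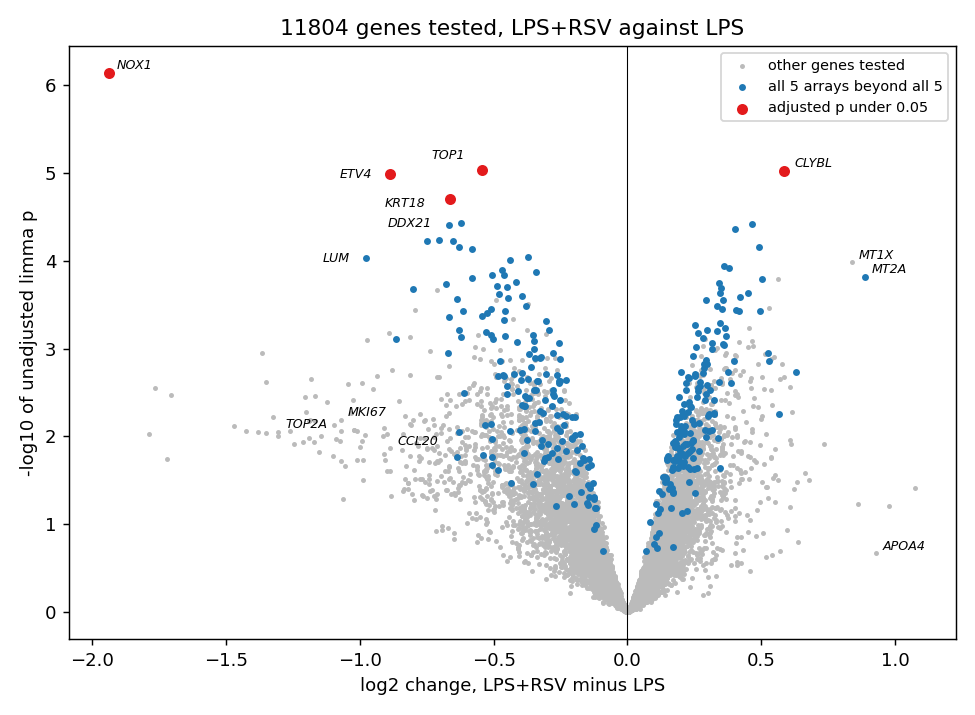
Log2 change (LPS+RSV minus LPS) against -log10 of the unadjusted limma p for the 11804 genes tested, with the genes that separate all 5 from all 5 arrays in blue and the 5 genes with an adjusted p under 0.05 in red. TOP2A and MKI67, genes of cell division, lie far to the left at -1.30 and -1.07 without passing, and MT2A and MT1X lie to the right at 0.89 and 0.84.

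Among the separated genes, 2 metallothionein genes led the higher ones. MT2A measured 5.75, 5.27, 6.41, 5.61 and 6.15 in LPS and 6.90, 6.61, 6.88, 6.62 and 6.61 in LPS+RSV, a difference of 0.89 ± 0.18 (limma adjusted p = 0.0667). MT1F was 8.17 to 8.50 in LPS and 8.92 to 9.25 in LPS+RSV, a difference of 0.63 ± 0.17. G0S2, an inhibitor of the triglyceride lipase ATGL, was 9.45 to 9.89 in LPS and 9.89 to 10.33 in LPS+RSV (0.52 ± 0.13). OGDHL, related to the oxoglutarate dehydrogenase of the TCA cycle, was 7.37 to 7.73 and 7.79 to 8.12 (0.42 ± 0.09). USP2, a deubiquitinase whose transcript follows the circadian clock, was 6.38 to 6.81 and 6.91 to 7.43 (0.49 ± 0.11), while the difference was 0.03 in a dimmer probe set (mean level 6.45, against 6.90).

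The other 6 of the 12 separated genes of largest increase beside these and CLYBL were noncoding RNAs, whose share among all genes tested was not counted. The antisense transcripts ZBED5-AS1 and SSTR5-AS1 differed by 0.47 ± 0.08 (limma adjusted p = 0.0573) and 0.49 ± 0.09 (0.0586), and LINC01569 by 0.50 ± 0.10 (0.0667). ZBED5-AS1 was 5.27 to 5.68 in LPS and 5.85 to 6.05 in LPS+RSV. The vault RNA VTRNA1-3 (6.49 to 6.90 in LPS, 6.92 to 7.81 in LPS+RSV), the Cajal body RNA SCARNA2 (7.98 to 8.40, 8.55 to 9.31) and the snoRNA host SNHG8 (8.97 to 9.20, 9.22 to 9.74) were the others. LPS+RSV array 1 had the highest VTRNA1-3 and SCARNA2 of all 15 arrays.

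LUM, which encodes the collagen-binding proteoglycan lumican, had the largest decrease of the separated genes after NOX1, from 6.00, 5.49, 4.87, 5.17 and 5.63 in LPS to 4.40, 4.59, 4.74, 4.48 and 4.07 in LPS+RSV (-0.98 ± 0.19, limma adjusted p = 0.0648). These are low levels for the array. LUM stood on the list of fibroblast and endothelial markers, of which 5 were tested; the other 4 differed by -0.13 to 0.01. HKDC1, a hexokinase family member, was 7.98 to 9.21 in LPS and 7.43 to 7.88 in LPS+RSV (-0.86 ± 0.21), with LPS arrays 1 and 2 at 9.06 and 9.21. LPGAT1, an acyltransferase of lysophospholipids, was 9.60 to 10.39 and at most 9.35 (-0.75 ± 0.14, limma adjusted p = 0.0586), and the microtubule-associated tumour suppressor MTUS1 7.08 to 7.80 and 6.62 to 6.85 (-0.70 ± 0.13, limma adjusted p = 0.0586). In LPGAT1, MTUS1 and the homeobox gene HOXB9 (-0.67 ± 0.15) LPS arrays 1 and 2 were again the 2 highest. Without both, the differences were -0.45 for HKDC1, -0.48 for LPGAT1, -0.45 for MTUS1 and -0.39 for HOXB9.

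DDX21, an RNA helicase of the nucleolus, was 9.92, 9.95, 9.65, 10.15 and 10.09 in LPS and 9.15, 9.63, 9.41, 9.22 and 9.02 in LPS+RSV (-0.67 ± 0.12, limma adjusted p = 0.0573). The chromatin remodeler CHD1 was 9.43 to 9.72 in LPS and 8.08, 9.21, 9.33, 9.04 and 8.97 in LPS+RSV, with a control mean of 9.51 ± 0.08 (SD, n = 5). Its difference of -0.67 ± 0.17 leaned on LPS+RSV array 1, without which it was -0.46. The microRNA genes MIR548V and MIR622 were the other 2 of the 12, at -0.80 ± 0.17 and -0.68 ± 0.14.

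**Figure D3:**
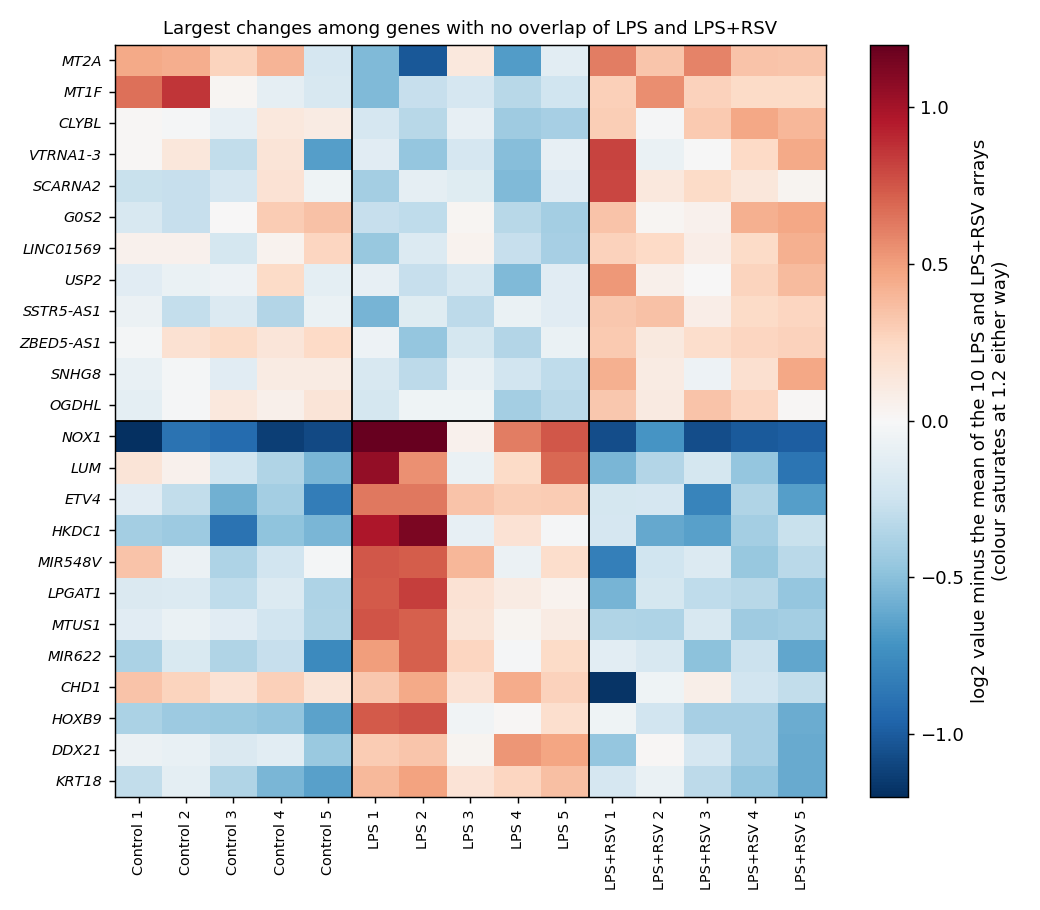
The 12 genes of largest increase (top) and of largest decrease (bottom) among the 331 separated genes, in all 15 arrays; colour gives the log2 value minus the gene's mean over the 10 LPS and LPS+RSV arrays. LPS arrays 1 and 2 are the darkest red in NOX1, HKDC1, LPGAT1, MTUS1 and HOXB9, and LPS+RSV array 1 is the darkest in SCARNA2, VTRNA1-3 and CHD1.

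Gene lists were then read one by one, each set against all genes tested, of which 52.1% were higher in LPS+RSV and the median difference was 0.01. Of all genes tested, 2.8% separated the groups, 1.41% upward and 1.39% downward. No list was tested as a set. The lists and their members were chosen with earlier results of these data known, so their shares describe these arrays only. Inflammatory signalling came first. Of 22 tested genes of endotoxin sensing and NF-κB, 14 were higher and 8 lower, with a median of 0.03, and 0 separated the groups. The receptor TLR4 differed by 0.06 ± 0.11, CD14 by 0.12 ± 0.09, MYD88 by 0.28 ± 0.14 and NFKB1 by 0.01 ± 0.09, and in each of these 4 genes the groups overlapped. The lowest p-values belonged to the kinases CHUK, an activator of NF-κB (-0.29 ± 0.08, limma adjusted p = 0.127), and MAP3K7 (-0.30 ± 0.11, and -0.19 without LPS+RSV array 1).

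Of 15 cytokine and chemokine genes 7 were higher and 8 lower, with a median of -0.01. CCL20, which attracts CCR6-bearing lymphocytes, was 7.89, 7.91, 8.17, 8.81 and 9.26 in LPS and 6.72, 8.55, 7.61, 7.43 and 7.28 in LPS+RSV. LPS+RSV array 2 exceeded 3 of the LPS arrays, and the difference of -0.89 ± 0.32 did not pass (limma adjusted p = 0.178). The membrane chemokine CX3CL1 differed the other way, by 0.34 ± 0.12, and by 0.16 without LPS arrays 1 and 2. In the interferon response list, with 7 of 15 higher and a median of 0.00, the ubiquitin-like protein ISG15 separated at 7.07 to 7.14 in LPS and 7.16 to 7.40 in LPS+RSV (0.17 ± 0.07). ISG15 was 6.67% of the list, against 2.8% of all genes.

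Growth signalling genes were lower in part. Of 25 immediate early and MAPK feedback genes, 16 were lower and 9 higher, with a median of -0.03, and ETV4 was the 1 that separated (4% of the list). An unadjusted p under 0.05 was reached by 6, all lower, against 10.5% of all genes. The ERK phosphatase gene DUSP6 was 8.97, 9.07, 8.29, 7.87 and 7.81 in LPS and 7.61, 6.91, 7.08, 7.85 and 7.60 in LPS+RSV (-0.99 ± 0.28). Only LPS+RSV array 4 reached into the LPS range, and the difference was -0.58 without LPS arrays 1 and 2. MYC differed by -0.81 ± 0.20, IER3 by -0.49 ± 0.11 (limma adjusted p = 0.0712) and EGR1 by -0.71 ± 0.25, each with some overlap. DUSP6, MYC, IER3 and EGR1 were named after their values were seen. Among 8 genes of EGF receptor ligands and receptors 5 were lower, with a median of -0.13. The ligand EREG was 7.60 to 8.67 in LPS and 6.42 to 7.84 in LPS+RSV (-0.97 ± 0.24), and HBEGF differed by -0.39 ± 0.12.

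The list of WNT target and stem cell genes had 12 of 17 lower and a median of -0.13, and 0 separated. SOX9, a crypt transcription factor, differed by -0.50 ± 0.17. APC, also on the list but a negative regulator of the pathway and not a target, differed by -0.38 ± 0.13. Without LPS+RSV array 1 APC differed by -0.23. Of 10 genes of TGF beta and extracellular matrix, 7 were lower with a median of -0.02, and FN1 and TIMP1 differed by -0.16 ± 0.09 and 0.19 ± 0.12 (TIMP1 by 0.10 without LPS array 4). Of 14 p53 targets 10 were lower with a median of -0.06, led by TIGAR at -0.31 ± 0.09, while the stress sensor SESN2 differed by 0.27 ± 0.09.

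Genes of cell division gave the largest shift of all lists and 0 separated genes. All 35 tested genes of mitosis and cell cycle were lower in LPS+RSV, with a median of -0.81. An unadjusted limma p under 0.05 was reached by 27 of them (77.1%), against 10.5% of all genes in that direction. None of the 35 passed over all genes (0 genes). The mitotic kinase gene CDK1 was 8.37, 8.43, 8.04, 9.31 and 9.49 in LPS and 6.19, 8.57, 7.84, 7.38 and 6.31 in LPS+RSV. LPS arrays 4 and 5 were the highest, LPS+RSV array 2 lay above 3 of the LPS arrays, and the difference was -1.47 ± 0.48 (limma adjusted p = 0.163). The cytokinesis regulator ECT2 differed by -1.35 ± 0.37, the condensin subunit SMC2 by -1.17 ± 0.34 and the proliferation marker MKI67 by -1.07 ± 0.34. All 20 DNA replication genes were also lower, with a median of -0.40 and a lowest value of -0.83. The 2 of lowest p were GINS4 at -0.46 ± 0.18 and the reductase subunit RRM2 at -0.69 ± 0.29, which turned to 0.06 with the division score described next as a covariate.

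Of 24 topoisomerase and DNA repair genes, 21 were lower with a median of -0.23. Of the 24, 3 separated, all lower (12.5%, against 1.39% of all genes): TOP1, ATR and RAD50. ATR, the kinase that answers replication stress, was 7.53 to 7.78 in LPS and 6.87 to 7.53 in LPS+RSV (-0.46 ± 0.13), with LPS array 3 and LPS+RSV array 3 next to each other. RAD50, of the break-sensing MRN complex, was 10.14 to 10.36 and 8.76 to 10.11 (-0.51 ± 0.19). LPS+RSV array 1 was the 8.76, and without it RAD50 differed by -0.26. The replicative TOP2A differed by -1.30 ± 0.44.

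The mean deviation of the 35 mitosis and cell cycle genes in each array was 0.23, 0.18, -0.06, 0.94 and 1.07 in LPS arrays 1 to 5 and -0.62, 0.41, -0.19, -0.40 and -0.91 in LPS+RSV arrays 1 to 5. In control arrays 1 to 5 it was 0.47, 0.43, -0.17, -0.35 and -1.02, so the untreated arrays also spanned a wide range. The mean deviation of 19 brush border and enterocyte genes was 0.14, 0.16, 0.04, -0.32 and -0.38 in LPS and 0.51, -0.39, 0.02, 0.22 and 0.33 in LPS+RSV. The 3 of these arrays with the highest division score had the 3 lowest brush border scores. With the division score as a covariate, 19 of 20 replication genes and 13 of 24 repair genes had a positive difference, and the brush border median went from 0.19 to -0.13.

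**Figure D4:**
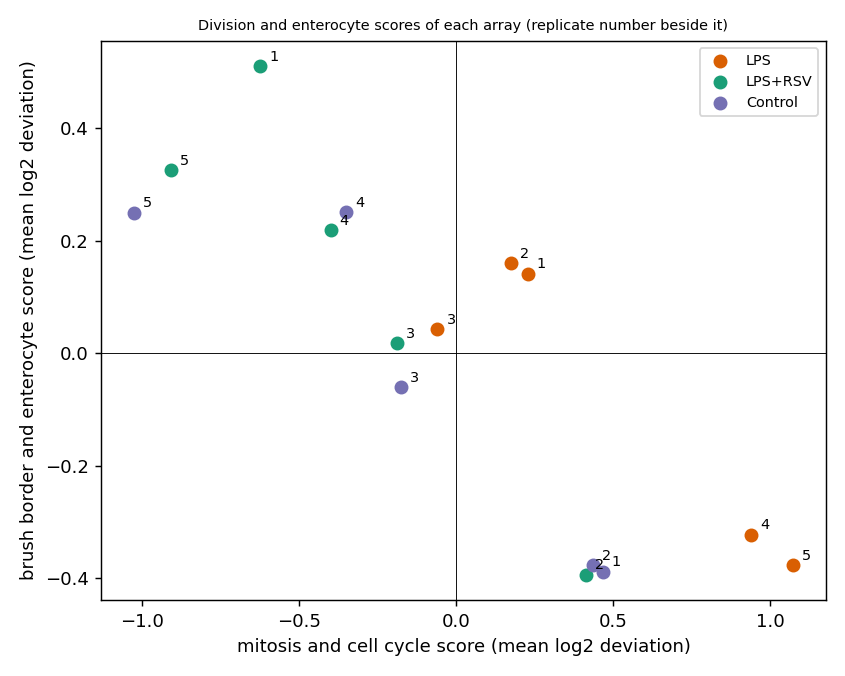
Mean log2 deviation of 35 mitosis and cell cycle genes (x axis) and of 19 brush border and enterocyte genes (y axis) in each array, with its replicate number. LPS arrays 4 and 5, at 0.94 and 1.07, lie furthest right and LPS+RSV arrays 1 and 5 lie at the upper left, while LPS+RSV array 2 lies beside control arrays 1 and 2.

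Genes that resveratrol is known to touch came next. AHR measured 10.40, 10.57, 10.22, 10.39 and 10.32 in LPS and 9.59, 10.07, 10.13, 9.88 and 9.77 in LPS+RSV (-0.49 ± 0.10, limma adjusted p = 0.0687). Its groups did not overlap. Its dimerization partner ARNT differed by 0.25 ± 0.07 and its target TIPARP by -0.25 ± 0.08. NFE2L2 measured 8.27, 8.25, 8.28, 8.34 and 8.31 in LPS, a spread of less than 0.1, and 7.19, 7.98, 7.93, 7.85 and 7.59 in LPS+RSV (-0.58 ± 0.12, limma adjusted p = 0.0667). The control mean was 7.98 ± 0.10 for NFE2L2 and 10.07 ± 0.13 for AHR (SD, n = 5).

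Of the 21 tested genes on the NRF2 antioxidant list, 13 were higher and 8 lower, with a median of 0.06, and NFE2L2 was the only 1 that separated (4.76%). HMOX1, the haem oxygenase, differed by -0.07 ± 0.15. Of 19 conjugating and cytochrome P450 enzymes, 13 were higher with a median of 0.13, and the glutathione transferases GSTM4 and GSTM2 differed by 0.46 ± 0.11 and 0.36 ± 0.17 (GSTM2 by 0.21 without LPS+RSV array 5). Of 13 sirtuin and mitochondrial biogenesis genes, 10 were higher with a median of 0.09. SIRT3, the mitochondrial deacetylase, was 6.99 to 7.28 in LPS and 7.28 to 7.59 in LPS+RSV (0.33 ± 0.08). SIRT1 differed by -0.24 ± 0.10. NAMPT, which makes the NAD precursor that sirtuins depend on, was the 1 separated member (7.69%), at 10.13 to 10.44 in LPS and 9.64 to 10.04 in LPS+RSV (-0.39 ± 0.11), and its other probe sets differed by -0.39 and -0.29.

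Metallothioneins, listed with MTF1, had the largest share of separated genes among lists with at least 5 tested members. It was 28.6%, against 2.8% of all genes, and came from only 2 of 7 genes, with 2 separated upward and 0 downward. Of the 7, 6 were higher and the median was 0.35. MT1X was 5.55, 5.73, 6.47, 5.52 and 5.69 in LPS and 6.41, 6.48, 6.61, 6.76 and 6.90 in LPS+RSV (0.84 ± 0.16, limma adjusted p = 0.0649). LPS array 3, at 6.47, just exceeded the lowest LPS+RSV array. MT3 differed by 0.35 ± 0.13, MT1E by 0.22 ± 0.18 (0.04 without LPS+RSV array 1), and the keratinocyte form MT4 and the regulator MTF1 by -0.02 ± 0.08 and 0.07 ± 0.07. The control means of MT2A, MT1X and MT1F were 6.56 ± 0.28, 6.44 ± 0.23 and 8.94 ± 0.48 (SD, n = 5). MT genes are close paralogs, so probe sets may share signal.

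The 250 bases before the start sites of MT2A, MT1X and MT4 are shown to set genes of this family with large and small differences side by side (RefSeq, GRCh38.p14, plus strand). Capitals mark each match to TGCNCNC on both strands. This pattern is looser than the core of the metal response element, the binding sequence of MTF1.
MT2A, chr16:56608334-56608583: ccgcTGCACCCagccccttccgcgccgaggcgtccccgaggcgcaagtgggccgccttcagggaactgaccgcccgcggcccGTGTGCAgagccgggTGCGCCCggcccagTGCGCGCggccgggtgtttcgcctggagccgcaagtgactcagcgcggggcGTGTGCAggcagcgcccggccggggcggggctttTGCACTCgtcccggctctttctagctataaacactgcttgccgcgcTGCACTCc
MT1X, chr16:56682220-56682469: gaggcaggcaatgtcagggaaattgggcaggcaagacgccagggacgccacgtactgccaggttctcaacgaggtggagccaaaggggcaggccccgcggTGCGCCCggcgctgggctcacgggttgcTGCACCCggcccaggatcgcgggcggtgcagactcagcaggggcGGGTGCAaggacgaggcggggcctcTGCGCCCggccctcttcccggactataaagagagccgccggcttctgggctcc
MT4, chr16:56564823-56565072: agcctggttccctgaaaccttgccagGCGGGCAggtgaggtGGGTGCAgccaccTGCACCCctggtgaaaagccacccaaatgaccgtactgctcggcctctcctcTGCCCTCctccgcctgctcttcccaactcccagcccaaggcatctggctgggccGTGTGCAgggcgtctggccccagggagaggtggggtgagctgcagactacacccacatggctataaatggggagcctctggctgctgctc

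MT2A held 7 matches, MT1X 4 and MT4 5, and the window of MTF1 held 0. Over 35116 promoter windows of the same length, 49.1% held at least 1 match, 1.77% at least 4 and 0.0854% at least 7. MT4, which differed by -0.02 ± 0.08, held more matches to this pattern than MT1X. The pattern allows any base where the core holds A or G, and GCGGGCA and TGCCCTC in MT4 match only the looser form. The counts of these 3 genes thus cannot be set against their differences, and no such relation was tested. The other 3 metallothioneins tested had no promoter in the table used.

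Lipid genes followed. Cholesterol genes, for synthesis and uptake, had 15 of 19 members lower and a median of -0.20. An unadjusted p under 0.05 in that direction was reached by 8 of the 19, against 10.5% of all genes, and 0 separated. SQLE, the squalene epoxidase, was 9.92 to 10.39 in LPS and 9.62 to 10.04 in LPS+RSV (-0.43 ± 0.12), and FDPS differed by -0.35 ± 0.10, though its dimmer probe set differed by 0.02. SREBF2, the sterol-sensing transcription factor, differed by -0.03 ± 0.07. Without LPS arrays 1 and 2 the median of the list was -0.09, with 12 of 19 lower.

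Of 27 genes of fatty acid and triglyceride synthesis 18 were lower, with a median of -0.08. Upward 1 separated and downward 1 (7.41% of the list, against 2.8% of all genes). ACACB, the mitochondrial acetyl-CoA carboxylase, separated upward at 6.51 to 6.69 in LPS and 6.71 to 6.89 in LPS+RSV (0.22 ± 0.06), and the elongase ELOVL5 downward at 8.90 to 9.05 and 8.76 to 8.89 (-0.12 ± 0.06). ACSL4, which activates arachidonic acid, had the largest difference of the list at -0.89 ± 0.21 (limma adjusted p = 0.102), with 8.25 to 8.98 in LPS and 7.30 to 8.40 in LPS+RSV; it was named after its value was seen. FASN, SCD and SREBF1 differed by -0.34 ± 0.11, -0.32 ± 0.12 and -0.06 ± 0.06, and the dimmer probe set of SCD by -0.14. Without LPS arrays 1 and 2 the median of this list was -0.01.

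Fatty acid oxidation and PPARA target genes pointed the other way, with 13 of 14 higher, a median of 0.17 and 0 separated. The thioesterase ACOT2 differed by 0.41 ± 0.14 and the peroxisomal thiolase ACAA1 by 0.47 ± 0.18, while CPT1A and PPARA differed by 0.18 ± 0.18 and 0.01 ± 0.13, and CPT1A ranged from 0.05 to 0.31 with 1 array left out. With the division score as a covariate the median was 0.01. Of 19 apolipoprotein and lipid droplet genes 14 were higher with a median of 0.13. The 2 of lowest p were lower, APOA2 at -0.38 ± 0.11 and the monoglyceride lipase MGLL at -0.44 ± 0.21; without LPS arrays 1 and 2 these were -0.23 and -0.01. APOA4, an apolipoprotein of chylomicrons, was 9.85, 10.17, 9.91, 8.29 and 8.02 in LPS and 11.31, 7.48, 9.72, 11.18 and 11.17 in LPS+RSV. Its values spread widely in both groups, and its difference of 0.93 ± 0.71 did not pass (limma adjusted p = 0.5). It was 1.60 without LPS+RSV array 2 and -0.79 with the division score as a covariate.

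In mitochondria, 19 of 24 tested subunits of complexes II to V were higher, with a median of 0.10. The ATP synthase subunit ATP5MJ separated (4.17%), at 6.96 to 7.16 in LPS and 7.18 to 7.38 in LPS+RSV (0.25 ± 0.07). Of 75 mitochondrial ribosome genes 47 were higher with a median of 0.05 and 2 separated (2.67%), near the share of all genes; MRPL30 differed by 0.23 ± 0.07. Of 24 import genes 13 were higher with a median of 0.01, led by TOMM7 at 0.27 ± 0.08 and TIMM17B at 0.27 ± 0.10. On the list of TCA cycle enzymes and acyl-CoA lyases, which holds CLYBL, 9 of 16 were higher and IDH3B differed by 0.22 ± 0.07. Complex I subunits had no probe set named here and were not analysed.

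Translation genes came next, and none of them passed over all genes. Of 51 cytosolic ribosomal protein genes, 41 were higher with a median of 0.09, and 4 separated, all higher (7.84%), against 1.41% of all genes. RPL41 was 12.61 to 12.81 in LPS and 12.84 to 12.96 in LPS+RSV (0.20 ± 0.06), with its 4 other probe sets at -0.02 to 0.25, and RPL27 was 11.14 to 11.26 and 11.31 to 11.51 (0.18 ± 0.06). RPL8 and RPL10 separated by smaller steps, 0.10 ± 0.05 and 0.08 ± 0.05. Ribosomal protein genes have many pseudogenes, which makes the probe sets uncertain. Of 37 translation factors 23 were higher, and EEF1G (0.23 ± 0.06; its dimmer probe set -0.01) and EIF4E2 (0.13 ± 0.06, and 0.08 without LPS+RSV array 1) separated upward. They were 5.41% of the list, against 1.41% of all genes.

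Ribosome assembly was a separate list, and its difference from the list of ribosomal proteins was not tested. Of 26 ribosome biogenesis genes, 22 were lower with a median of -0.11. Of the 26, 2 separated, both lower (7.69%, against 1.39% of all genes): DDX21 and WDR43. WDR43, part of the small-subunit processome, was 8.44 to 8.84 in LPS and 7.63 to 8.44 in LPS+RSV (-0.63 ± 0.15, limma adjusted p = 0.0999). Of 17 aminoacyl-tRNA synthetases 15 were lower with a median of -0.18, and NARS1 separated (-0.31 ± 0.09, 5.88% of the list). With the division score as a covariate, 14 of these 17 had a positive difference.

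Among 30 small nucleolar and Cajal body RNAs and their hosts, 24 were higher and the median was 0.23. Of these, 5 separated, all higher (16.7%, against 1.41% of all genes): SNHG8, SCARNA12, SCARNA10, SCARNA2 and SNHG5. Cajal body RNAs guide the modification of spliceosomal RNAs. SCARNA12 was 10.22 to 10.40 in LPS and 10.50 to 10.89 in LPS+RSV (0.36 ± 0.08, limma adjusted p = 0.0712), and SCARNA10 was 9.12 to 9.54 and 9.56 to 9.97 (0.36 ± 0.09). Control means were 10.32 ± 0.10 for SCARNA12 and 9.54 ± 0.08 for SCARNA10 (SD, n = 5). The score of this list was 0.33 in LPS+RSV array 1 and 0.04 to 0.08 in the other 4, against -0.22 to -0.05 in LPS. Without LPS+RSV array 1 the median was 0.20 and 6 members separated. Fewer arrays make separation easier, and over all genes tested the separated ones rose from 2.8% to 3.91% without it. The part of that array in the result beyond this was not tested.

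Among 103 splicing and hnRNP factors, 74 were lower, 0 separated and the median was -0.08. HNRNPAB differed by -0.39 ± 0.10 and RBM25 by -0.48 ± 0.16 (-0.30 without LPS+RSV array 1). The list score was -0.32 in LPS+RSV array 1 and -0.08 to 0.06 in the other 4, against -0.06 to 0.12 in LPS, and without that array the median was -0.03. Of 79 chromatin modifiers 52 were lower with a median of -0.04, and 3 separated, all lower (3.8%, against 1.39% of all genes). These were CHD1, CHD1L at -0.35 ± 0.11 and the methyltransferase KMT2C at -0.25 ± 0.08. LPS+RSV array 1 was the lowest of its group in each. The 397 ZNF zinc finger genes were even, 198 higher and 199 lower, with a median of 0.00, and 8 separated (2.02%, below the 2.8% of all genes). ZNF426, ZNF580 and ZNF844 separated upward by 0.25 ± 0.06, 0.30 ± 0.07 and 0.27 ± 0.08 among 5, and ZNF292 was the largest of 3 that separated downward, at -0.63 ± 0.21, with LPS+RSV array 1 at 6.92 and the other 4 at 8.18 to 8.42 (-0.35 without array 1).

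Stress responses showed small medians. Of 22 unfolded protein response and ATF4 genes 16 were lower (median -0.09), with the secreted hormone STC2 at -0.34 ± 0.11. Of 23 heat shock proteins and chaperones 13 were lower (median -0.03). The inducible HSPA1A was 10.49 to 10.76 in LPS and 10.73 to 11.39 in LPS+RSV (0.32 ± 0.10, and 0.20 without LPS+RSV array 1), and HSPA1L, whose probe sets can share signal with it, differed by 0.34 ± 0.11. Of 17 hypoxia and glycolysis genes 11 were lower (median -0.10). The growth factor VEGFA separated downward (5.88% of the list) at 8.76 to 8.95 and 8.54 to 8.76 (-0.20 ± 0.07), with values that nearly touched. Of 42 autophagy and lysosome genes 26 were higher (median 0.06), and ATG5, needed to lengthen the autophagosome membrane, separated downward (-0.26 ± 0.10, 2.38% of the list). LPS+RSV array 1 was its lowest, and without it ATG5 differed by -0.15. Of 30 ubiquitin-conjugating enzymes and ubiquitin genes 23 were lower (median -0.06), with UBE2K at -0.28 ± 0.08 and UBB at -0.12 ± 0.07 separated downward and UBE2QL1 upward at 0.17 ± 0.08. The separated members were 10% of the list, against 2.8% of all genes. Of 9 iron genes 4 were higher (median -0.07), with HFE at 0.24 ± 0.09 and TFR2 at -0.14 ± 0.08.

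Of the epithelial genes KRT18 alone passed the test. Of 19 brush border and enterocyte genes 16 were higher with a median of 0.19, and MYO1A, the brush border myosin, differed by 0.56 ± 0.24 and the lactase LCT by 0.18 ± 0.08. With the division score as a covariate MYO1A differed by -0.04 and the median, as given above, was -0.13. The 1 member that separated (5.26%, against 2.8% of all genes) went the other way: KLF5, a factor of dividing crypt cells, was 9.99 to 10.25 in LPS and 9.55 to 9.97 in LPS+RSV (-0.44 ± 0.09, limma adjusted p = 0.0648). Of 11 desmosome and adherens junction genes 9 were lower with a median of -0.13, and the plakophilin PKP2 separated at 10.00 to 10.41 and 9.63 to 9.99 (-0.44 ± 0.10, limma adjusted p = 0.0712). PKP2 was 9.09% of the list. The desmosomal cadherin DSG2, named after its value was seen, differed by -0.71 ± 0.19 (-0.34 without LPS arrays 1 and 2), and LPS arrays 1 and 2 were its highest at 9.83 and 9.99. Without these 2 arrays the median of the list was -0.01, with 6 of 11 lower.

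Of 29 claudins and tight junction genes 15 were higher with a median of 0.02, and 1 separated (3.45%, near the 2.8% of all genes). CLDN1, a sealing claudin, separated downward at 11.09 to 11.39 in LPS and 10.75 to 11.07 in LPS+RSV (-0.31 ± 0.08), whereas CLDN3 and CLDN15, named after their values were seen, differed by 0.47 ± 0.14 and 0.31 ± 0.09. Of 23 keratins 13 were higher with a median of 0.01. Besides KRT18, KRT37 separated (-0.35 ± 0.09), and both together were 8.7% of the list. KRT20, a keratin of mature enterocytes also named after its value was seen, was 7.62, 7.96, 6.34, 6.27 and 5.79 in LPS and 6.44, 5.33, 5.67, 5.63 and 5.80 in LPS+RSV (-1.02 ± 0.34). Without LPS arrays 1 and 2 the difference was -0.36. Of 9 mucin and goblet cell markers 5 were higher (median 0.04), with the kallikrein KLK1 at 0.52 ± 0.18 and the mucin chaperone AGR2 at -0.39 ± 0.14. Among 11 enteroendocrine and Paneth markers 7 were higher (median 0.09), with REG3A at 0.26 ± 0.08 and LYZ at -0.49 ± 0.33. Of 6 immune markers 5 were lower (median -0.03) and CD68, a lysosomal protein, differed by 0.27 ± 0.16. Among 23 solute carriers SLC60A1 separated upward at 6.31 to 6.52 and 6.66 to 7.03 (0.38 ± 0.08, limma adjusted p = 0.0667). SLC60A1 was 4.35% of the list, against 2.8% of all genes.

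**Figure D5:**
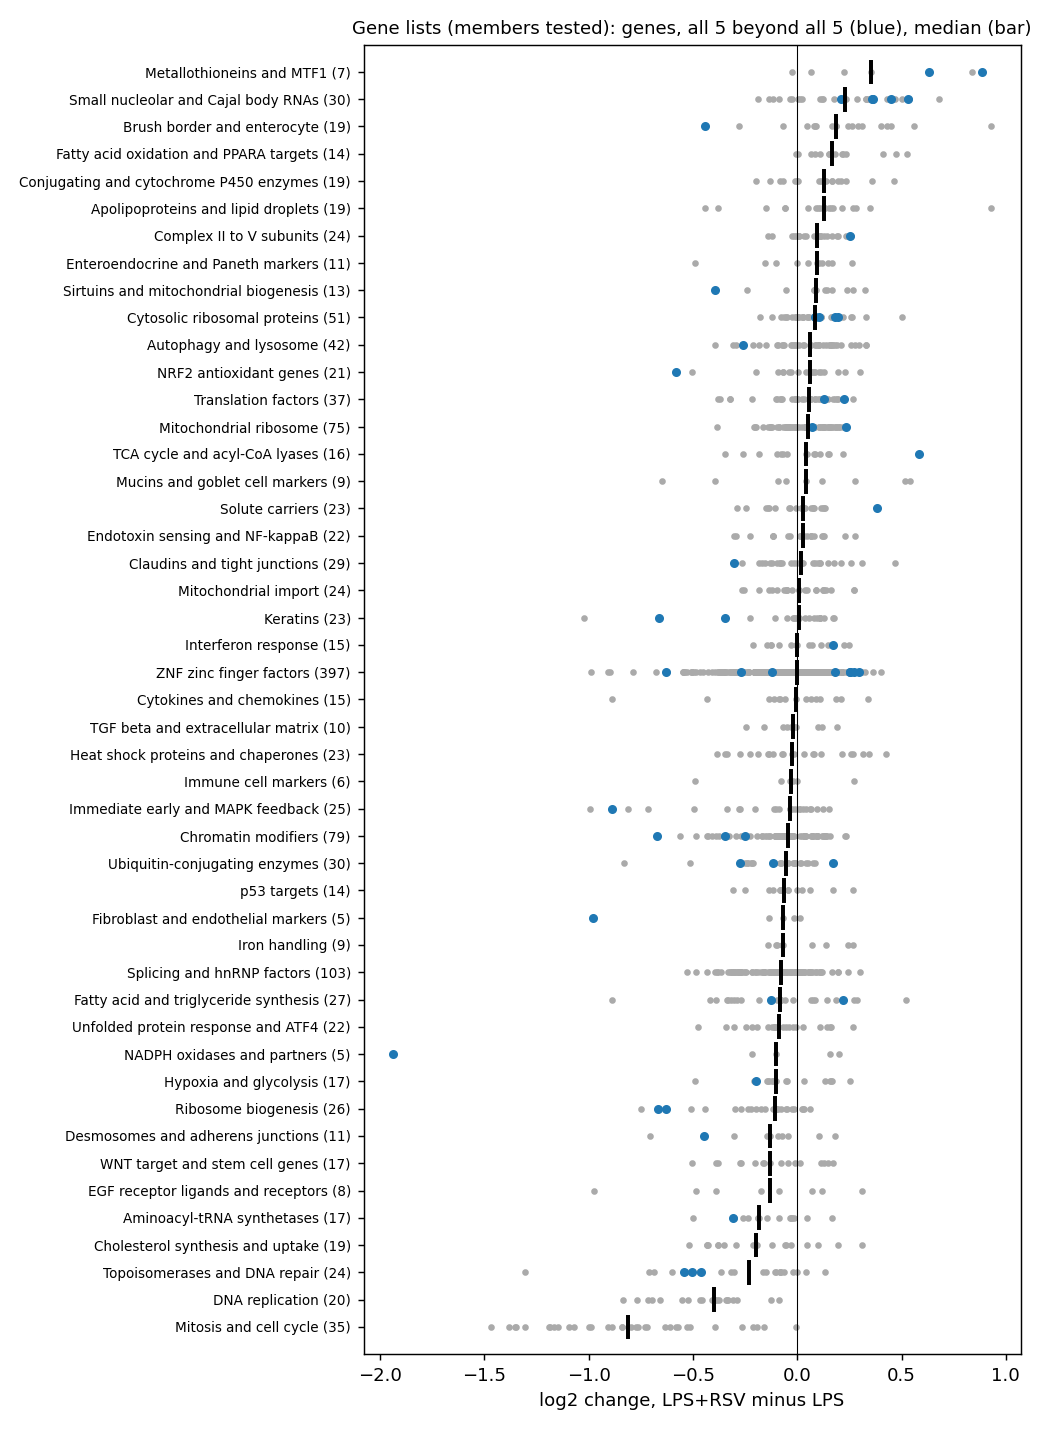
Log2 change (LPS+RSV minus LPS) of every tested member of each gene list with at least 5 tested members, with separated genes in blue and the list median as a bar, sorted by median. Metallothioneins and small nucleolar and Cajal body RNAs are at the top with medians of 0.35 and 0.23, and mitosis and cell cycle and DNA replication at the bottom with -0.81 and -0.40.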

How the data were processed

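Expression was measured on Affymetrix whole-transcript arrays from 300 ng of RNA a sample, per the labels' protocols. The deposited log2 values were made by the authors with RMA, per the submitters' processing notes; its version and settings are not given in the sources used here. No scanner files were used, and depth has no meaning for arrays, whose number limits the precision.

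Of 53617 probe sets, 16098 carried 1 gene symbol in the platform annotation used here, none several, and 37519 none. The brightest probe set stood for each of the 14884 symbols. Genes above the array's 40th percentile in at least 5 arrays were fitted with limma 3.58.1 (R 4.3.3) as 3 group means over 15 arrays, and LPS+RSV minus LPS was adjusted by Benjamini-Hochberg over 11804 genes. The fit was tested on simulated data. The genes named were those that passed, the 12 largest of each direction among separated genes, up to 4 separated members of each list (or the 2 of lowest p), and a list of fixed genes. Named outside this rule, and chosen after their values were seen, were ACSL4, ARNT, CDK1, CLDN3, CLDN15, DBP, DSG2, DUOX1, DUOX2, DUSP6, EGR1, IDH3B, IER3, KLF6, KRT8, KRT20, LCT, MT1E, MT1X, MT3, MT4, MTF1, MYC, MYO1A, NOXA1, NOXO1, SNHG5, TIPARP, TOP2A, WWC1, ZNF292 and the microRNA genes other than MIR548V and MIR622; PECAM1, VWF, DCN and SI are cell type markers. List scores are means of each gene's deviation from its mean. The members and lists were chosen with earlier results of these data known. Alternatives were the filter, the probe set rule, the scaling, the variance prior, array weights, a replicate block, a division score as covariate, and arrays left out.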

Additional observations from a re-analysis of the deposited data

Results flagged for a closer look

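In 25 genes, 50 groups of 5 arrays were checked for a single array far from the rest of its group, which chance alone gives in about 5% of groups, and 3 stood out. NOX1 in LPS+RSV array 2 was 7.13, with the next highest array of the group at 6.85. MT1F in LPS+RSV array 2 was 9.25, with the next at 8.98. SCARNA2 in LPS+RSV array 1 was 9.31, with the next at 8.74.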

How the results depend on the processing

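The test called 5 genes, and 331 separated the groups. Other settings called 20 genes (every probe set on its own), 22 (quantile normalization again), 12 (cyclic loess), 25 (array weights), 12 (division score as a covariate), 1 (without LPS arrays 1 and 2, with 685 separated) and 0 (limma on only the 10 arrays, where 1897 genes had an unadjusted p under 0.05). Leaving out 1 array gave 1 to 121 calls and 408 to 1100 separated genes: 102 and 917 without LPS array 3, 121 and 1100 without LPS+RSV array 2, and 1 call without any other. Fewer arrays make separation easier. Without LPS+RSV array 1 and LPS arrays 1 and 2, chosen after seeing the data, 1 gene was called and 938 separated. With the replicate block, 3 were called (NOX1, ETV4 and KRT18), and TOP1 and CLYBL missed at an adjusted p of 0.0787. The numbers were not taken as pairs. For this, arrays were correlated after each gene's group mean was subtracted, which by itself shifts such values. On these deviations, same-numbered LPS and LPS+RSV arrays correlated at -0.37 to 0.098, 0 of 5 best with their own number. For LPS+RSV and control it was -0.44 to 0.707 and 3 of 5, and the labels name no shared source. NOX1 passed in 23 of 24 alternatives, ETV4 in 12, CLYBL and TOP1 in 11 and KRT18 in 10. The cause of these shifts was not tested. The sign turned in a few named genes, none of which passed. With arrays centred on their medians, PPARA differed by -0.0011. With quantile normalization, SREBF2 differed by 0.00126. With cyclic loess, SREBF2 differed by 0.0167. Without LPS arrays 1 and 2, the differences that turned were HMOX1 0.0448, MT4 0.0414 and SREBF2 0.0418. With array weights, MT4 differed by 0.000113. With the division score, the differences that turned were APOA4 -0.792, CD14 -0.0103, CD68 -0.103, CPT1A -0.19, LYZ 0.288, MYD88 -0.0532, MYO1A -0.0419, PPARA -0.252, RRM2 0.0612, SI -0.0937 and VIL1 -0.0419. Without the 3 arrays, the differences that turned were MT1E -0.0211, MT4 0.00624 and SREBF2 0.0546. With 1 array left out, MT4 spanned -0.0687 to 0.0182, SREBF2 spanned -0.0637 to 0.0187, HMOX1 spanned -0.161 to 0.0431, PPARA spanned -0.083 to 0.0996, TLR4 spanned -0.0151 to 0.125 and NFKB1 spanned -0.0216 to 0.0403.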

Other observations

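A further 3 lists were added after the values of this comparison were seen. Like the other lists, chosen with earlier results of these data known, they describe these arrays only. Of 16 circadian clock genes, 1 separated upward and 3 downward (25%, against 2.8% of all genes). The output gene USP2 was higher, and the activator BMAL1 (6.95 to 7.32 in LPS, 6.52 to 6.94 in LPS+RSV, -0.33 ± 0.10), the nuclear receptor RORA (5.65 to 6.30 and 5.26 to 5.63, -0.32 ± 0.11) and NAMPT were lower. DBP, another output gene, was 7.64 to 7.89 in LPS and 7.82 to 8.49 in LPS+RSV (0.39 ± 0.11). Samples carry no clock time in the labels. Of 20 genes of the YAP and TEAD pathway, 15 were lower with a median of -0.14. Of the 20, 5 separated, all lower (25%, against 1.39% of all genes). The target ANKRD1 was 6.91 to 7.32 in LPS and 6.21 to 6.72 in LPS+RSV (-0.62 ± 0.11, limma adjusted p = 0.0573), the target CRIM1 9.12 to 9.34 and 8.49 to 8.99 (-0.46 ± 0.10), the actin-binding ENC1 8.42 to 8.93 and 7.67 to 8.36 (-0.64 ± 0.14), the partner TEAD1 8.34 to 8.73 and 7.69 to 8.31 (-0.40 ± 0.11), and the upstream scaffold WWC1 7.86 to 8.07 and 7.59 to 7.79 (-0.25 ± 0.07).

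Of 495 tested microRNA genes, whose probe sets read the precursor or its host transcript and not the mature RNA, 229 were higher and 266 lower, and 7 separated, all lower (1.41%, against 1.39% of all genes). They were MIR548V, MIR622, MIR3916, MIR3911, MIR181B1, MIR3619 and MIR4482. MIR622 was 8.16, 8.37, 7.92, 7.64 and 7.88 in LPS and 7.53, 7.47, 7.16, 7.40 and 7.04 in LPS+RSV. Its gene lies whole within KRT18P27, a pseudogene of KRT18, in RefSeq's GRCh38.p14 annotation, and whether its probes also read transcripts of KRT18 was not tested. MIR3916 was 7.81 to 8.27 in LPS and 7.37 to 7.66 in LPS+RSV (-0.51 ± 0.10, limma adjusted p = 0.0667). MIR181B1, within the noncoding gene MIR181A1HG, differed by -0.35 ± 0.09. The mature sequences of MIR622, MIR3916 and MIR181B1 (its 5p arm) are shown for their seeds, bases 2 to 8 in capitals (RefSeq, GRCh38.p14), and no 2 share a seed.
miR-622, chr13:90231242-90231262, plus strand: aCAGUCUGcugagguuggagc
miR-3916, chr1:247202016-247202041, minus strand: aAGAGGAAgaaauggcugguucucag
miR-181b-5p, chr1:198858925-198858947, minus strand: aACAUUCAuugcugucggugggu

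With the division score as a covariate, 12 genes passed, 4 higher and 8 lower. Of the genes that passed without the covariate, only NOX1 remained among them (-1.94 ± 0.30, limma adjusted p = 0.0308). The limma adjusted p was 0.0669 for TOP1 and CLYBL, 0.0716 for ETV4 and 0.0811 for KRT18. EGR1 (-1.29 ± 0.17, limma adjusted p = 0.017), DUSP6 (-1.46 ± 0.26), KLF6 (-0.74 ± 0.13) and ANKRD1 (-0.72 ± 0.13) fell in this fit and MT1F rose (0.94 ± 0.15). Without the covariate KLF6 differed by -0.34, and by -0.06 without LPS arrays 1 and 2. The others that passed were DEPDC7, HSD17B2 and EIF5A2, which fell, and APOO, HERC6 and PAPSS1, which rose. The score itself differed between the groups, so the covariate takes up part of the group difference. Among 20642 probe sets without a gene name here, 1 passed, lower in LPS+RSV, and 447 separated the groups (2.17%).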
